A study of Mus musculus with 12 samples.

Results

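The proliferative compartment of wild type (WT) mouse growth plate cartilage was compared with the resting compartment in 6 of the 12 RNA-Seq libraries of the series, 3 from each compartment. Of 36186 gene rows, those that reached 5 NRPKM in 3 or more of these 6 libraries were compared, 9914 in all. NRPKM is the deposited unit, reads scaled to the length of the transcript and the size of the library and then normalized between libraries by the authors. Both compartments came from the same kind of embryo, WT for every gene studied, of mixed 129/CD-1 strain at embryonic stage E15.5, and from the forelimb zeugopod, the segment of radius and ulna. The cells were cut from sections by laser capture microdissection (LCM), so each library is a bulk sample of the captured region. By the authors' account the captured cells were mostly chondrocytes, with a contribution of perichondrium. In bulk samples, fewer cells of a type and less RNA per cell cannot be told apart. The other 6 libraries, 3 from WT hypertrophic cartilage and 3 from Hox mutants, are quoted only for a few values.

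Chondrocytes of a growing limb bone pass from a resting pool into stacked columns of dividing cells, then leave the cell cycle as prehypertrophic cells and enlarge as hypertrophic cells, around which the matrix mineralizes. The 2 ends of this path are coupled by secreted signals: prehypertrophic cells make Indian hedgehog (IHH), which maintains parathyroid hormone-related protein (PTHrP) near the joint, and PTHrP acts through its receptor PTH1R to delay hypertrophy. RUNX2, RUNX3, MEF2C and SP7 are transcription factors that promote hypertrophic differentiation, while SOX9, SOX5 and SOX6 maintain the chondrocyte state.

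The depth, read from the most frequent value of genes that are close to silent, was 2400000 to 2950000 reads for the resting libraries and 1890000 to 2620000 for the proliferative, and intervals or floors drawn from it cover counting error only. At this depth 1 read on 1 kb of transcript was worth 0.339 to 0.530 NRPKM. Over the genes compared, resting replicate 1 and proliferative replicate 1 were 0.593 apart as the root mean square of their log2 differences, which was within the range between resting libraries (0.470 to 0.600) and below that between proliferative libraries (0.691 to 0.731), while other pairs of 1 resting and 1 proliferative library were 0.753 to 0.861 apart. Of 14 general chondrocyte genes, 13 did not meet the criteria of the comparison, and *Sox9* was at 174, 160 and 156 NRPKM in the resting libraries and 164, 180 and 170 in the proliferative. Markers of other tissues marked out single libraries: the summed level of 15 skeletal muscle genes was 150 NRPKM in proliferative replicate 3 and 15.8 to 23.5 in the other 5, and that of 10 epidermal genes was highest, at 250, in resting replicate 2. The labels do not say whether replicates are separate animals, so *P* values measure the spread among these libraries.

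Genes were called by the criteria of the study, an unadjusted *P* of 0.05 or less with a fold change (FC) of at least 2, here from limma on log2(NRPKM + 0.1). All log2 fold changes below are proliferative minus resting on this scale. Called genes numbered 446 of 9914 (4.50%), of which 197 were higher in the proliferative compartment (1.99%) and 249 lower (2.51%). Counts of called genes in the lists below are to be read beside these shares. A gene can pass the filter through the libraries of its higher compartment alone, so these counts are descriptions only. Among the genes named below, *Tbx4*, *Inhba*, *Hoxd10*, *Nrp1*, *Tcf7* and *Entpd3* did so, and others as well. An adjusted *P* under 0.05 was reached by 74 genes (0.746%), 41 higher (0.414%) and 33 lower (0.333%), and an FC of at least 5 with the unadjusted criterion by 52 (0.525%), 29 higher and 23 lower. In 400 of the 446 the 3 libraries of one compartment lay above all 3 of the other, as they did in 23.9% of all genes compared, so that separate ranges alone do not set a gene apart. Where a fit with the replicate number as a block moved a named gene across an adjusted *P* of 0.05, its value is given as that of the blocked fit. The median log2 fold change of all genes was -0.05, and the direction of the balance depended on scaling. Quantile normalization gave 238 higher and 184 lower (56.4% higher in place of 44.2%), and removing the trend of each library with GC content, an alternative chosen after seeing the data, gave 208 higher and 162 lower (56.2%) of the 9408 genes with a GC value, a set that lacked 16 of the 197 and 29 of the 249. Median GC content was 49.2% over all genes compared, 50.1% in those higher and 53.0% in those lower, and its part in the calls was not tested further. Without proliferative replicate 1 the genes lower numbered 412.

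**Figure D1:**
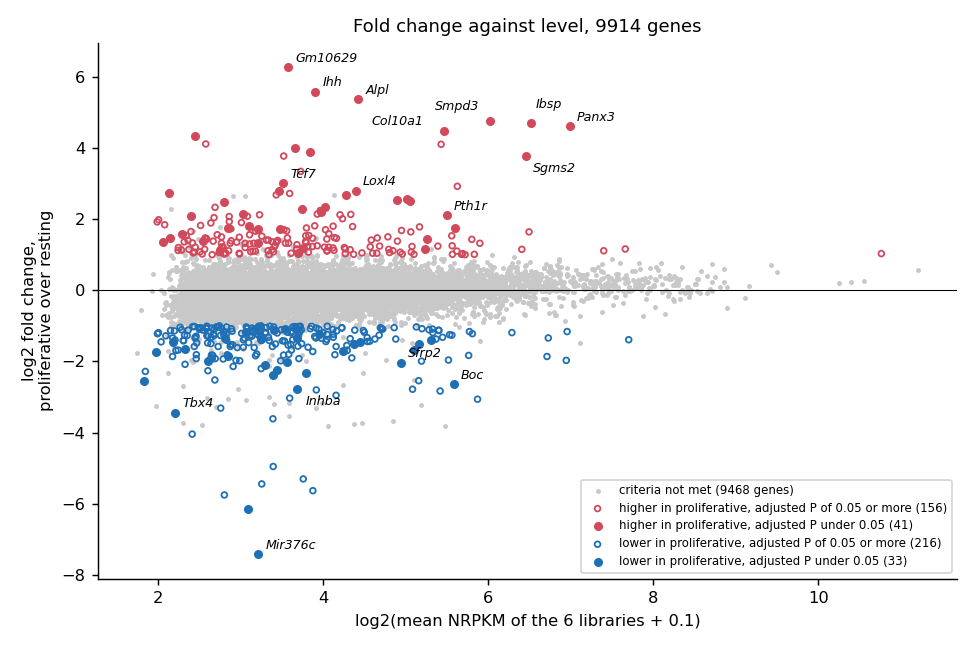
Log2 fold change of proliferative over resting (vertical axis) against the mean level of the 6 libraries (log2 NRPKM + 0.1, horizontal axis), 1 point per gene for 9914 genes. Red points were higher and blue points lower in the proliferative compartment by the criteria, and filled points had an adjusted *P* under 0.05 (41 higher and 33 lower). The lowest blue points are microRNA loci of a few reads.

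The marker genes of prehypertrophic cells rose together in the libraries labelled proliferative. Of the 12 listed genes 11 could be compared and all 11 were higher, where 1.99% of all genes compared were. Of the 11, 9 had an adjusted *P* under 0.05, and the median log2 fold change was 4.10. The list was written with earlier results of these data known, and the authors already name *Ihh*, *Panx3*, *Dlx5* and *Sp7* as up-regulated here. *Ihh*, *Alpl* and *Slc13a5* were below 5 NRPKM in every resting library and passed the filter through the proliferative libraries alone. The count is thus a description only. *Ihh* was at 0.783, 0.275 and 0.517 NRPKM in resting replicates 1 to 3 and at 20.1, 27 and 40.5 in proliferative replicates 1 to 3, so that the compartments were far apart in every library. Its log2 fold change was 5.58 ± 0.38 (SE, 47.7-fold, limma adjusted *P* of 0.0034). *Alpl* encodes the tissue-nonspecific alkaline phosphatase that clears the mineralization inhibitor pyrophosphate, and was at 1.61, 0.662 and 0.466 NRPKM against 47, 18.3 and 60.3. *Col10a1*, the collagen X gene that marks hypertrophic cartilage, was at 1.86, 5.79 and 3.62 NRPKM in resting and 43.5, 98.9 and 111 in proliferative libraries (log2 fold change 4.48 ± 0.49, adjusted *P* of 0.015). The ranges of these 3 genes were separate, and the lowest proliferative value of *Alpl* was that of replicate 2, whereas for *Col10a1* and *Ihh* it was that of replicate 1. *Slc13a5*, a citrate transporter gene, rose by 3.99 ± 0.38 (adjusted *P* of 0.011). *Phospho1*, a phosphatase gene of mineralizing cells, did not reach the filter. It was at 0 in every resting library and at 0.689, 11.3 and 8.73 NRPKM in the proliferative, at least 12.3-fold higher when 3 reads per library are taken as the floor.

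Of 10 late hypertrophic genes only 2 could be compared and neither met the criteria, while with the filter over 12 libraries 2 of 6 and with no filter on low values 4 of 9 were higher, and without resting replicate 1 one gene was lower. The collagenase gene *Mmp13* was at 3.81 to 6.24 NRPKM in the proliferative libraries and 2.45 to 2.88 in the resting. WT hypertrophic replicates 2 and 3 had 735 and 661 NRPKM. WT hypertrophic replicate 1 differed from these, as the 10 genes summed to 97.8 NRPKM there and to 2490 and 2360 in replicates 2 and 3. In the proliferative libraries they summed to 49.8 to 68.4 NRPKM. Osteoblasts of the perichondrium share several of the prehypertrophic genes. A list of 15 osteoblast and perichondrium genes summed to 367, 685 and 516 NRPKM in the resting libraries and to 966, 696 and 1740 in the proliferative, and 7 of the 12 compared were higher, 4 of them also on the prehypertrophic list. *Col1a1*, the main collagen of bone and perichondrium, was at 142, 355 and 227 NRPKM against 202, 211 and 557 and overlapped between the compartments. The part of perichondrium in the rise of the shared genes was not tested.

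**Figure D2:**
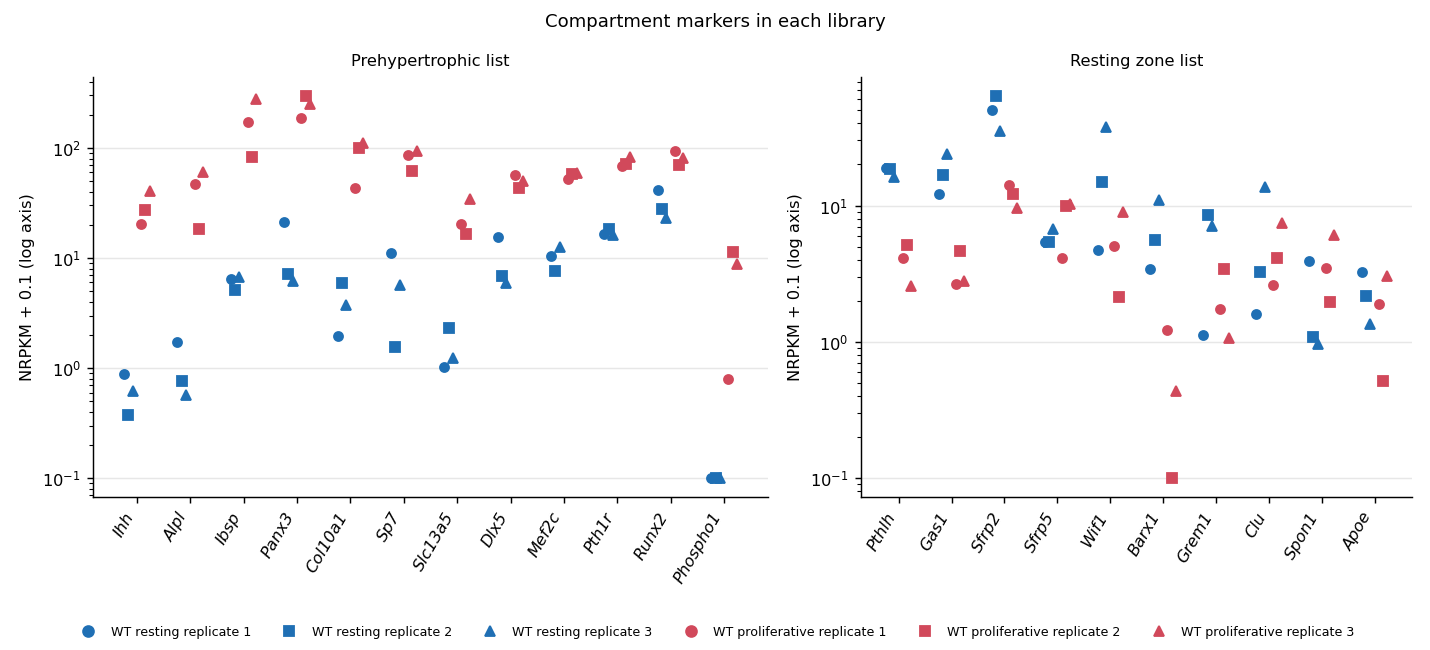
Level of each listed marker in each library (NRPKM + 0.1, log axis), with resting libraries in blue, proliferative in red and a symbol for each replicate number. All 12 prehypertrophic genes had every red point above every blue point, and *Pthlh*, *Gas1* and *Sfrp2* of the resting list had every blue point above every red point.

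On the resting side, 5 of the 10 listed genes could be compared and 3 fell in the proliferative compartment, all with an adjusted *P* under 0.05. *Pthlh*, which encodes PTHrP, was at 18.7, 18.5 and 16.2 NRPKM in the resting and 4.04, 5.04 and 2.45 in the proliferative libraries and fell by 2.24 ± 0.27 on the log2 scale (4.71-fold, adjusted *P* of 0.021). *Sfrp2*, a secreted WNT antagonist gene, was at 50.1, 63.2 and 35.3 NRPKM against 14.1, 12 and 9.55. *Gas1*, a membrane co-receptor of hedgehog ligands, was at 12, 16.6 and 23.9 NRPKM against 2.56, 4.51 and 2.71. It thus passed the filter of 5 NRPKM through the resting libraries alone. Each of these 3 genes was lower in every proliferative library than in any resting library, and *Pthlh* had the tightest resting values.

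Within hedgehog signalling the ligand and its co-receptors moved in opposite directions. Of 16 genes compared, *Ihh* was higher and 3 were lower, all 3 of them co-receptors at the cell surface. *Boc* was at 51.5, 109 and 89.3 NRPKM in the resting libraries and 12.1, 11 and 15.1 in the proliferative. On mm10 the gene spans chromosome 16 from 44485045 to 44558870, and it fell by 2.64 ± 0.30 (6.25-fold, adjusted *P* of 0.016). *Cdon*, its paralog, was at 48.7, 68.9 and 83 NRPKM against 24.3, 26.8 and 31.3 (log2 fold change -1.26 ± 0.23, adjusted *P* of 0.078), and *Gas1* is the third. No library of one compartment overlapped with the other for any of the co-receptors. The receptor *Ptch1*, itself a transcriptional target of the pathway, was at 93.6, 87.3 and 73 NRPKM against 140, 146 and 157 without reaching an FC of 2 (log2 fold change 0.81 ± 0.17). The effector genes *Gli2* (33.1, 47 and 42 NRPKM against 19.5, 19.3 and 24.2) and *Gli3* (55.8, 62.3 and 54.6 against 37.1, 36.2 and 36.2) did not reach it either, although all 3 had separate ranges. *Gli2* met the criteria without resting replicate 1 (-1.08) or proliferative replicate 3 (-1.05). The signal transducer *Smo* was at 61.6, 66.4 and 68.3 NRPKM against 50.2, 43.7 and 49.4.

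Downstream of PTHrP, 12 genes of the PTHrP, MEF2 and class II histone deacetylase axis were compared, with 2 higher and 1, *Pthlh*, lower. *Pth1r*, the PTHrP receptor gene on chromosome 9 from 110722085 to 110747145, was at 16.4, 18.4 and 16.1 NRPKM in resting and 68.1, 70.8 and 81.7 in proliferative libraries, with little spread within either compartment (log2 fold change 2.11 ± 0.16, adjusted *P* of 0.0051). *Mef2c* was at 10.4, 7.46 and 12.5 NRPKM against 52.4, 58.1 and 58.6 (2.50 ± 0.22, adjusted *P* of 0.0079). The gene of its repressor, *Hdac4*, was at 18.5, 33.8 and 24.9 NRPKM against 14.3, 11.2 and 16.6 and was not called (-0.84 ± 0.27), but met the criteria without resting replicate 1 (-1.06).

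Promoter sequence, the 250 bases before the RefSeq start on GRCm38.p6, was at hand for 7820 of the genes compared and was searched on both strands for the letters TGTGGT of the RUNX core and TAATTA of the homeobox core. The motifs and the promoters shown were chosen after the expression values were seen, and a match is a description only. A gene counted as matched if the sequence before any of its RefSeq starts held the letters, so genes with several starts had more chances. TGTGGT was found for 12.2% of all these genes, for 18.0% of 139 genes higher and for 15.4% of 169 genes lower. TAATTA was found for 2.83% of all, for 3.60% of the higher and for 4.14% of the lower. Of the 8 prehypertrophic genes with a promoter, *Runx2* had the RUNX core and *Col10a1* and *Mef2c* the homeobox core, and these 3 are printed 5′ to 3′ with the match in capitals because they belong to genes that separated the compartments. The match of *Runx2* (chr17:44814628-44814877, minus strand) reads as the reverse complement and begins 80 bases before the start, that of *Col10a1* (chr10:34389731-34389980, plus strand) 106 bases, and that of *Mef2c* (chr13:83523406-83523655, plus strand, 1 of 3 listed starts) 102 bases.
Runx2: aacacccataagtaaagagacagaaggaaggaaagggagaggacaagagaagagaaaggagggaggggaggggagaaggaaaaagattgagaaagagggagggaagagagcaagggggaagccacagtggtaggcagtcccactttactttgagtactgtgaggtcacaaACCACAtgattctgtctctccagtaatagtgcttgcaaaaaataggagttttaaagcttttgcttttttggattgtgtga
Col10a1: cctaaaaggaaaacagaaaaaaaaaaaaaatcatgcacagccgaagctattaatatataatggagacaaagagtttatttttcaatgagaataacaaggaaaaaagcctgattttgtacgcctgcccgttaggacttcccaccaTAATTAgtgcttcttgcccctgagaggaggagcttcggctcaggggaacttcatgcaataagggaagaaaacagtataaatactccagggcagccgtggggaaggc
Mef2c: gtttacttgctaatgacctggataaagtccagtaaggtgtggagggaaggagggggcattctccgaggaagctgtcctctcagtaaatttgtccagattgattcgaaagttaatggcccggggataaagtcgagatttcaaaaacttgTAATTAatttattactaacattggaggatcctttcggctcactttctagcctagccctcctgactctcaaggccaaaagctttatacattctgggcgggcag

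Of 13 genes for RUNX factors, SP7 and their partners, 4 were higher, 1 was lower and 8 were not called, with a median log2 fold change of -0.06, and leaving out 1 library gave 0 to 3 lower (3 without proliferative replicate 3). *Sp7* was at 10.9, 1.46 and 5.64 NRPKM against 85.3, 61.7 and 93.2 (log2 fold change 4.10 ± 0.65, adjusted *P* of 0.054, 0.040 in the blocked fit). *Runx2* was well above background in both compartments, at 41.1, 27.7 and 23.2 NRPKM against 92.8, 69.2 and 80.6 (1.43 ± 0.25, adjusted *P* of 0.068). Its paralog *Runx3* was at 39.4, 24.1 and 13.9 NRPKM against 73.1, 67.8 and 64.2. For these 3 genes every proliferative library was above every resting library, and resting replicate 1 was the highest resting library. The 3 *Dlx* and *Msx* genes that could be compared were all higher. *Dlx5* was at 15.4, 6.81 and 5.84 NRPKM against 56.1, 43.3 and 49.9, *Dlx3* rose by 2.68 ± 0.46 (adjusted *P* of 0.068, 0.012 in the blocked fit), and *Msx2* rose by 1.39 ± 0.16 (adjusted *P* of 0.020).

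Of 12 nuclear receptor genes 2 were higher, 1 was lower and 9 were not called, with a median of -0.24, and of 16 forkhead genes 2 were higher and 1 lower. Leaving out 1 library gave 0 to 2 nuclear receptor genes lower, and 1 to 2 forkhead genes higher and 0 to 3 lower. *Vdr*, the vitamin D receptor gene, was at 5.9, 6.12 and 4.13 NRPKM in resting libraries and at 26.9, 27 and 27.3 in proliferative libraries, almost without spread (2.33 ± 0.19, adjusted *P* of 0.0072). *Thrb*, which encodes a thyroid hormone receptor, was at 1.47, 1.1 and 0.674 NRPKM against 6.28, 9.57 and 6.69 (2.72 ± 0.30, adjusted *P* of 0.015). *Tcf7*, a transcriptional partner of β-catenin, was at 1.74, 2.09 and 3.09 NRPKM against 23, 10.4 and 27.8 (3.01 ± 0.40, adjusted *P* of 0.026). *Maf*, a leucine zipper factor of late chondrocyte differentiation, was at 3.69 to 6.02 NRPKM in resting and 13.1 to 36.6 in proliferative libraries (2.24 ± 0.40, adjusted *P* of 0.070, 0.034 in the blocked fit). *Foxo1*, a forkhead factor under insulin control, rose by 1.16 ± 0.20, but its log2 fold change without resting replicate 2 was 0.99 and no longer met the criteria. None of the 7 *Sox* genes compared was called in limma, and 1 had an unadjusted *P* of 0.05 or less. *Sox5* was at 69.9, 70.9 and 74.9 NRPKM against 50.5, 61.7 and 50.7, and *Sox6* at 59.5, 46.9 and 54.5 against 46.8, 45.2 and 41.8.

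Of 16 T-box, odd-skipped and other limb homeobox genes compared, 6 were lower and none higher, while the filter over 12 libraries added 3 higher among 21 genes and no filter 6 higher among 29, each again with 6 lower. *Tbx4* was at 5.98, 9.59 and 9.28 NRPKM in resting and 1.27, 0.642 and 0.325 in proliferative libraries (adjusted *P* of 0.022, 0.051 in the blocked fit), while *Tbx5*, the forelimb T-box gene, was at 70.1, 70.1 and 74.9 NRPKM against 29.6, 10.9 and 19.1 (-1.96 ± 0.34). *Tbx15* was at 115, 106 and 103 NRPKM against 58.7, 36.5 and 49.3. In none of the 3 did the compartments overlap, and the resting values of *Tbx5* and *Tbx15* were close together. *Osr2* and *Osr1*, zinc finger factors of joint and soft tissue progenitors, had log2 fold changes of -2.26 ± 0.46 and -1.29 ± 0.29, the latter -0.96 and outside the criteria without resting replicate 3.

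Genes of the *HoxA* and *HoxD* clusters, whose posterior members set the identity of limb segments, lay below 0 in 9 of 10 compared, where 56.2% of all genes did, with a median log2 fold change of -0.98, and 4 met the criteria. *Hoxd10* was at 23.3, 12.3 and 12.2 NRPKM against 3.17, 3.21 and 4.14 (-2.09 ± 0.29, adjusted *P* of 0.030, 0.054 in the blocked fit). *Hoxa10* was at 22.8, 20.6 and 11.5 NRPKM against 10.6, 5.94 and 6.25, and *Hoxd9* at 6.18, 8.79 and 5.59 against 3.09, 3.46 and 0.757. *Hoxa11*, a gene of the zeugopod itself, was at 23, 30.5 and 11.3 NRPKM against 10.5, 11.3 and 8.94 and was not called (-0.96 ± 0.36), but met the criteria without resting replicate 3 (-1.37). Without resting replicate 2 only 2 of the 4 were called, and *Hoxd9* was among those lost (-1.48). The ETS factor genes *Fli1* (37.4, 23.5 and 25 NRPKM against 16.6, 8.04 and 9.62, adjusted *P* of 0.12, 0.045 in the blocked fit) and *Erg* (39.9, 28.5 and 37.7 against 24.1, 8.66 and 14.6), the second a factor of articular chondrocytes, were lower, and *Erg* was outside the criteria without proliferative replicate 2 (-0.89).

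**Figure D3:**
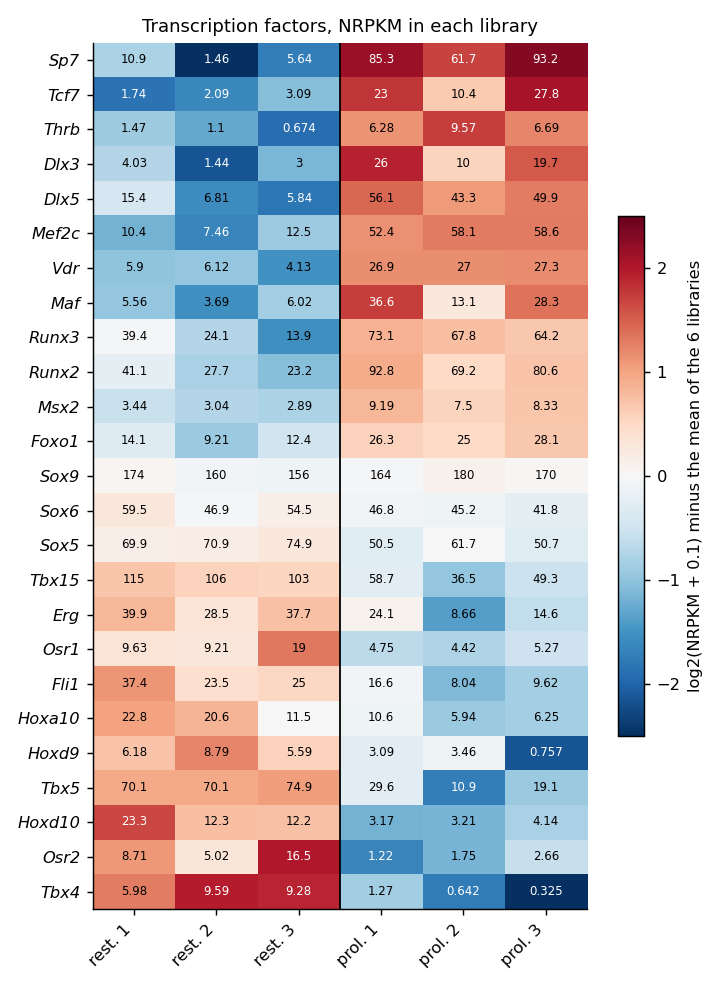
NRPKM of 25 transcription factor genes in each library, printed in the cells and coloured by the log2 difference from the mean of the 6 libraries. Genes from *Sp7* to *Foxo1* were higher in the 3 proliferative libraries, *Sox9*, *Sox6* and *Sox5* were not called, and genes from *Tbx15* to *Tbx4* were lower.

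Joint interzone genes, which mark the layer where a joint forms beside the resting cells, gave 13 genes compared with 6 lower and 1 higher. *Sfrp2*, *Osr1*, *Osr2* and *Erg* are described above. *Creb5*, a factor of superficial articular cells, fell by 1.98 ± 0.51 (limma adjusted *P* of 0.15, 0.037 in the blocked fit) and *Dcx*, a microtubule protein gene, by 1.86 ± 0.31 (0.061, 0.026 in the blocked fit). *Gdf5*, the defining ligand of the interzone, was at 17.4, 8.42 and 7.43 NRPKM in the resting libraries and 13.5, 9.71 and 6.63 in the proliferative, which overlapped. The gene higher was *Wnt4*, which is also expressed in prehypertrophic cartilage, at 7.26, 8.6 and 8.38 NRPKM against 21.5, 16.3 and 18.3.

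Of the growth factor pathways, TGFβ and activin signalling had the most genes lower. Of 22 genes compared 7 were lower and none was higher, where 2.51% of all genes compared were lower and 1.99% higher. The median log2 fold change was -0.61 against -0.05 over all genes, and without proliferative replicate 2 the count lower was 4. *Inhba*, which encodes the activin A subunit, was at 13.8, 21.1 and 32.3 NRPKM against 3.35, 2.1 and 3.9 (-2.77 ± 0.36, 6.80-fold, adjusted *P* of 0.024). *Ldlrad4*, an inhibitor of SMAD activation, was at 8.7, 11.6 and 13.4 NRPKM against 2.96, 2.84 and 3.13 (-1.86 ± 0.20, adjusted *P* of 0.015). Both had separate ranges, with the proliferative libraries close together. Latent TGFβ binding proteins, which hold TGFβ in the matrix, made up 3 of the 7: *Ltbp3* at 24.1, 38.6 and 36.5 NRPKM against 10.3, 12.4 and 16.7, *Ltbp4* with -1.30 ± 0.27, and *Ltbp1* with -1.35 ± 0.40, or -0.92 and outside the criteria without proliferative replicate 2. *Fbn2* and *Smad3* were the other two, and their log2 fold changes of -1.16 and -1.09 became -0.64 and -0.89 without that library. *Fbn2* also lost its call without any 1 of the resting libraries (-1.20 to -1.14), and *Smad3* without resting replicate 3 (-0.95). The ligand gene *Tgfb2* was at 46.5, 32 and 23 NRPKM against 51.3, 46.4 and 35.7 and the receptor gene *Tgfbr2* at 20.4, 20.4 and 31.9 against 19.5, 19.4 and 23.7, both with overlap.

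BMP signalling had 4 genes higher and 1 lower of 30 compared, and 2 higher without resting replicate 3, proliferative replicate 2 or proliferative replicate 3. Over all genes compared 1.99% were higher and 2.51% lower. *Bmp4* was at 8.98, 5.22 and 11 NRPKM against 31.8, 17.8 and 25.5 (1.59 ± 0.33, adjusted *P* of 0.093, 0.046 in the blocked fit), and *Bmp3*, a ligand that counters osteogenic BMPs, at 2.87, 3.03 and 5.85 against 10.3, 5.87 and 16. *Bmp3* thus had its lowest proliferative value close to its highest resting value. *Gdf1* was lower, but its row overlaps that of *Cers1*.

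WNT signalling had 4 genes higher and 3 lower of 35, against 1.99% higher and 2.51% lower over all genes compared. Besides *Tcf7*, the ligand genes *Wnt4* (1.19 ± 0.17, adjusted *P* of 0.037, 0.071 in the blocked fit) and *Wnt5a*, a non-canonical ligand at 10.9, 4.98 and 5.74 NRPKM against 30.4, 14 and 18.6 (adjusted *P* of 0.14, 0.034 in the blocked fit), rose, as did the antagonist *Dkk1*, at 3.94, 6.85 and 7.17 NRPKM against 15.7, 12.4 and 19.1. The genes lower were the antagonist *Sfrp2*, the co-receptor *Lrp5* and *Ror1*, a WNT5A receptor gene (-1.45 ± 0.46). *Lrp5* was at 26.7 to 41.7 NRPKM in resting and 7.27 to 20.5 in proliferative libraries, and without proliferative replicate 2 its log2 fold change was -0.94 and *Sfrp2* was the only gene of the list called lower. Without resting replicate 1 the list had 5 genes lower. *Fat4*, a giant cadherin of planar cell polarity, was at 53.8, 40.4 and 31.1 NRPKM against 24.3, 9.15 and 17.5 and was outside the criteria without proliferative replicate 2 (-0.98).

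Receptor tyrosine kinase pathways were mixed. In the FGF list, 1 of 12 genes was called: *Fgfr1*, at 53.5, 104 and 79.4 NRPKM against 35.3, 26.2 and 37.6, which was outside the criteria without resting replicate 2 (-1.0 after rounding). *Fgfr3*, the receptor that restrains chondrocyte proliferation, was at 58.9, 60.6 and 58.8 NRPKM against 78.5, 116 and 82.7, separate in all libraries but under an FC of 2 (0.62 ± 0.19). Of 18 IGF genes 2 were lower, or 1 without resting replicate 2, resting replicate 3 or proliferative replicate 2, and 1 of the 2 was the binding protein gene *Igfbp5* at 166, 128 and 180 NRPKM against 45.6, 19.3 and 90.5. Of 13 genes of VEGF, PDGF and EGF signalling 4 were lower and 1 higher, with 7 lower without proliferative replicate 1 and 2 without proliferative replicate 2. The gene higher was the ligand *Pdgfa*, at 4.03, 6.9 and 12.2 NRPKM against 42.9, 21.3 and 25.3. *Lrig3*, a modulator of receptor kinases, was at 48.8, 57.7 and 51.5 NRPKM against 18.8, 14.3 and 22.4 (-1.52 ± 0.21, adjusted *P* of 0.030, 0.056 in the blocked fit). *Axl* was at 19.6, 30.2 and 28.6 NRPKM against 13.6, 4.39 and 10.3, and *Egfr* fell by 1.32 ± 0.33, or by 0.97 and outside the criteria without proliferative replicate 2.

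Guidance receptors first known from axons gave 4 genes higher and 2 lower of 23 in the semaphorin, plexin and netrin families, and those higher were all receptors. Without proliferative replicate 2 the counts were 6 higher and 0 lower, without resting replicate 1 they were 6 and 1, without resting replicate 2, resting replicate 3 or proliferative replicate 3 only 1 was lower, and with quantile normalization or the GC trend removed none was lower. *Nrp1*, the semaphorin and VEGF co-receptor gene, was at 2.15, 1.49 and 2.44 NRPKM against 12.5, 12.9 and 9.78 (2.49 ± 0.23, adjusted *P* of 0.0085). The netrin receptor gene *Unc5b* was at 5.5, 4.59 and 3.34 NRPKM against 20.7, 17.9 and 27.8 (2.29 ± 0.25, adjusted *P* of 0.015). The plexin genes *Plxna2* and *Plxnd1* rose by 1.98 ± 0.34 and 1.67 ± 0.29 (adjusted *P* of 0.068 and 0.069, 0.046 and 0.034 in the blocked fit). *Plxnd1* and *Nrp1* are also vascular genes. The summed level of 12 endothelial genes was 15.8 to 34.2 NRPKM in the resting and 11.7 to 27.6 in the proliferative libraries, and the part of endothelial RNA was not tested. In the ephrin family 2 of 11 genes were lower and none higher, with 1 lower without resting replicate 2, resting replicate 3 or proliferative replicate 2. *Ephb3*, an ephrin receptor gene, was at 15.7, 14.8 and 16.5 NRPKM against 7.67, 6.94 and 7.39, a change just over an FC of 2 (adjusted *P* of 0.030, 0.052 in the blocked fit) that fell just under it with quantile normalization (-0.99) or with the GC trend removed (-0.92).

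Against 1.99% higher and 2.51% lower over all genes compared, hormone receptor and related genes had 5 higher and 1 lower of 10. Besides *Vdr* and *Thrb*, those higher were the leptin receptor gene *Lepr*, at 5.96, 4.55 and 4.61 NRPKM against 21, 18.1 and 12.1 (1.72 ± 0.24, adjusted *P* of 0.035), *Gper1*, a membrane estrogen receptor gene, at 3.48, 3.8 and 2.37 against 8.4, 13.3 and 11.2 (1.74 ± 0.25, adjusted *P* of 0.037, 0.051 in the blocked fit), and *Leprotl1*, related to leptin receptor trafficking. *Thrb* and *Gper1* were below 5 NRPKM in every resting library and passed the filter through the proliferative libraries alone. The list was written with earlier results known, so its count is a description only. *Thra*, which encodes the other thyroid hormone receptor, was the gene lower (-1.14 ± 0.37), and it was outside the criteria without resting replicate 2 (-1.01) or proliferative replicate 2 (-0.78). In retinoid metabolism, *Dhrs3*, which encodes a retinaldehyde reductase that limits retinoic acid, was at 50.4, 57.7 and 48 NRPKM against 16.4, 14.6 and 18 (-1.67 ± 0.17, adjusted *P* of 0.012). *Prkg2*, the cGMP-dependent kinase of C-type natriuretic peptide signalling, was at 12.5, 3.64 and 8.19 NRPKM against 29, 36.8 and 30.4 (2.13 ± 0.42).

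**Figure D4:**
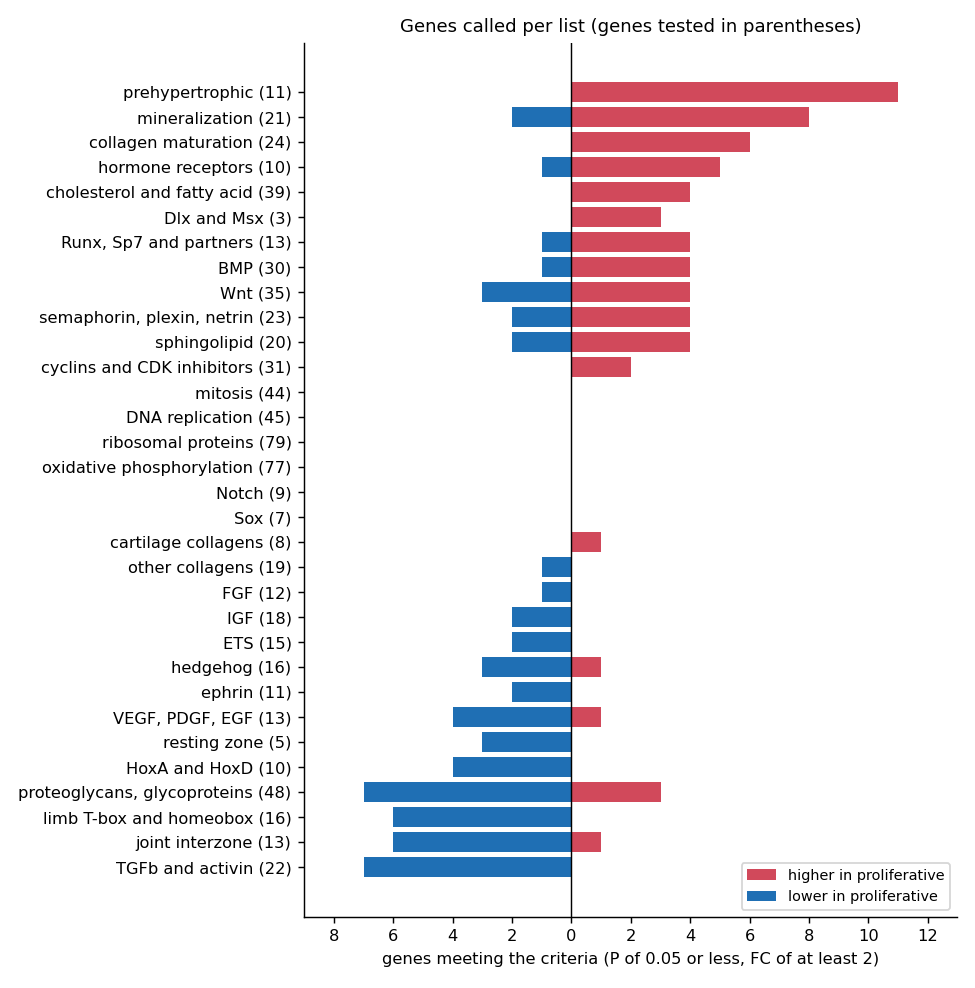
Number of genes that met the criteria in 32 lists, with genes higher in the proliferative compartment in red to the right and genes lower in blue to the left, and the number of genes compared in parentheses. The prehypertrophic list had 11 higher of 11, the TGFβ and activin list 7 lower of 22, and the mitosis, DNA replication, ribosomal protein, oxidative phosphorylation, Notch and Sox lists had none.

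Most of the main structural genes of cartilage did not meet the criteria. Of the 8 cartilage collagens only *Col10a1* was called, *Col2a1* was at 799, 1200 and 1410 NRPKM in resting and 894, 1530 and 1490 in proliferative libraries, and *Acan*, the aggrecan gene, was at 212, 311 and 311 against 248, 407 and 395. Of 24 genes for collagen cross-linking and processing 6 were higher, none was lower and 18 were not called, with a median log2 fold change of 0.15. *Loxl4*, a lysyl oxidase gene on chromosome 19 from 42592279 to 42612806, was at 6.43, 4.22 and 5.04 NRPKM against 33.3, 35.4 and 41.4 (2.80 ± 0.20, adjusted *P* of 0.0047). *Pcolce2*, an enhancer of procollagen processing, was at 23.4, 19.9 and 22.2 NRPKM against 54.8, 89 and 80.6 (1.74 ± 0.22, adjusted *P* of 0.023, 0.051 in the blocked fit). *Leprel1*, a prolyl 3-hydroxylase gene, was at 12.5, 10.9 and 20.9 NRPKM against 32.2, 52.2 and 56.3, and *Lox* at 13.2, 13.1 and 17.7 against 36.9, 27.7 and 91.3. In all 4 the ranges were separate, and the highest value of *Lox*, in proliferative replicate 3, was in the library with the highest *Col1a1*.

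Other matrix genes went both ways. Of 48 proteoglycans and glycoproteins 7 were lower and 3 higher, where 2.51% of all genes compared were lower and 1.99% higher. Without resting replicate 1 there were 11 lower. Those higher were 1 without resting replicate 1 or proliferative replicate 2 and 5 without proliferative replicate 1. *Fras1*, a basement membrane protein gene, was at 7.28, 25.9 and 15.4 NRPKM against 2.42, 3.18 and 4.24 (-2.12 ± 0.45), *Smoc1*, a BMP-modulating matrix protein gene, fell by 1.83 ± 0.45, and *Emilin3* and the hemicentin gene *Hmcn1* fell by 1.82 ± 0.52 and 1.33 ± 0.27, the latter with an adjusted *P* of 0.088, or 0.049 in the blocked fit. The highest value of *Fras1* was in resting replicate 2, the library with the highest epidermal sum, and the part of epidermal RNA was not tested. *Vcan*, the versican gene, was at 81.7, 54 and 49.1 NRPKM against 33.6, 14.2 and 29, or -0.94 and outside the criteria without proliferative replicate 2. *Aspn*, an inhibitory small leucine-rich proteoglycan gene, rose by 1.50 ± 0.46. Among sulfation enzymes, *Chst15* was at 6.02, 5.09 and 4.52 NRPKM against 13.9, 11.3 and 14.2 (1.32 ± 0.18, adjusted *P* of 0.033) and *Chst3* at 17.3, 17.1 and 17.9 against 7.69, 8.04 and 8.55 (-1.10 ± 0.15, adjusted *P* of 0.027). Both have an adjusted *P* of 0.051 with the block. *Chst15* adds a second sulfate to chondroitin 4-sulfate and *Chst3* makes chondroitin 6-sulfate, so the 2 enzymes with a call went in opposite directions, while *Chst3* was under an FC of 2 with the GC trend removed (-0.96). *Sulf1*, a heparan sulfate endosulfatase gene, fell by 1.60 ± 0.40 and was outside the criteria in 1 fit of all 12 libraries.

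Integrin-related genes included *Itgbl1*, at 14.2, 23.7 and 40.3 NRPKM against 3.18, 1.66 and 7.04 (-2.80 ± 0.56, adjusted *P* of 0.088, 0.049 in the blocked fit), and *Itga8*, an integrin subunit gene, at 10.1, 8.91 and 7.35 against 3.62, 2.09 and 3.77 (-1.48 ± 0.26). Neither overlapped between the compartments.

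Mineralization genes had 8 higher and 2 lower of 21 compared, 6 of them with an adjusted *P* under 0.05 and higher, and 14 higher with no filter on low values. Over all genes compared 1.99% were higher and 2.51% lower. *Smpd3*, the neutral sphingomyelinase 2 gene on chromosome 8 from 106252548 to 106337988, was at 4.05, 3.62 and 5.64 NRPKM in resting and 80.5, 134 and 161 in proliferative libraries (4.75 ± 0.30, 26.9-fold, adjusted *P* of 0.0030). *Gm10629*, whose row lies within it, was at 0.342, 0 and 0.403 NRPKM against 18.3, 14.6 and 37.5, and with no strand stated in the sources used here reads of the 2 rows cannot be told apart. *Sgms2*, a sphingomyelin synthase gene on chromosome 3 from 131318986 to 131344923, was at 10.7, 10.6 and 14.2 NRPKM against 135, 165 and 192 (3.78 ± 0.21, adjusted *P* of 0.0017). Sphingomyelin synthesis and breakdown were thus both among the most strongly higher genes, while the paralog *Sgms1* was at 11.9, 17.3 and 16.3 NRPKM against 7.45, 5.54 and 6.52 (-1.20 ± 0.21). Of the 20 sphingolipid genes 4 were higher and 2 lower. The other genes higher were *Ormdl2*, a regulator of serine palmitoyltransferase (1.45 ± 0.25), and *Sptlc2*, a subunit of that enzyme at 32.1, 13 and 17.9 NRPKM against 44.8, 53.3 and 40.9, which without resting replicate 2 had a log2 fold change of 0.94 and was outside the criteria.

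Other mineralization genes were mostly higher among those called, and of 16 gap junction and ion channel genes 3 were higher and 4 lower, or 2 lower without resting replicate 2. *Ibsp*, the bone sialoprotein gene, was at 6.33, 4.99 and 6.6 NRPKM against 170, 82.2 and 278. *Entpd3*, an ectonucleotidase gene, was at 0.49, 0.528 and 0.227 NRPKM against 12.3, 6.15 and 12.4 (4.32 ± 0.37, adjusted *P* of 0.0072). *Panx3*, a channel gene through which cells release ATP, was at 21.1, 7.02 and 6.02 NRPKM against 186, 294 and 248. These 3 genes had separate ranges, and *Entpd3* and *Ibsp* were lowest in proliferative replicate 2. *Ifitm5* and *Tmem119*, both osteoblast genes, rose by 2.92 ± 0.48 and 1.47 ± 0.43. The other mineralization gene that fell was *Car9*, a carbonic anhydrase gene induced by hypoxia, at 11.1, 33.3 and 24.2 NRPKM against 6.32, 5.3 and 7.18 (-1.72 ± 0.39).

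Genes of the cell division cycle gave few calls. None of the 44 mitosis genes and none of the 45 DNA replication genes compared met the criteria in limma, with medians of -0.12 and -0.16 against -0.05 over all genes. At an unadjusted *P* of 0.05 or less, whatever the FC, 8 of the mitosis and 6 of the DNA replication genes passed, all lower, where 16.9% of all genes compared passed in either direction. *Mki67* was at 102, 91.5 and 97.5 NRPKM in resting and 86.1, 83.9 and 82.2 in proliferative libraries (-0.20 ± 0.15). *Top2a* was at 82.4, 59.7 and 66.4 NRPKM against 68.7, 71.6 and 57.1, and *Pcna* at 94.7, 61 and 59.6 against 81, 70 and 73.7. The ranges of *Top2a* and *Pcna* overlapped, and that of *Mki67* did not. Of 31 cyclins and inhibitors of cyclin-dependent kinases 2 were called, both higher. *Cdkn1a*, the p21 gene, was at 5.5, 11.5 and 11.1 NRPKM against 27.1, 27.4 and 39.9 (1.79 ± 0.32, adjusted *P* of 0.072), and *Gadd45g*, a growth arrest gene, at 3.13, 1.93 and 3.26 against 8.45, 7.26 and 6.28 (1.40 ± 0.24). *Cdkn1c*, the p57 gene, was at 256, 182 and 238 NRPKM against 234, 285 and 275.

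In large housekeeping groups few genes or none met the criteria. The 77 oxidative phosphorylation genes had a median log2 fold change of 0.27 with 64 above 0, and the 79 ribosomal protein genes 0.14 with 60 above 0. Of all 9914 genes 4343 lay above 0, and the median was -0.05. With quantile normalization the list medians were 0.24 and -0.01. No gene of either list met the criteria in limma. An unadjusted *P* of 0.05 or less was reached by 20 and 5 of them, where 16.9% of all genes compared reached it. The 61 genes of the endoplasmic reticulum and secretion had a median of 0.32 and 2 higher, or 1 without resting replicate 1 and 0 without resting replicate 3. The 39 cholesterol and fatty acid genes had a median of 0.39 with 4 higher. Of these, *Dhcr7*, the last enzyme of cholesterol synthesis, was at 25.7, 20.6 and 23.5 NRPKM against 55.9, 48.3 and 51.8 (1.16 ± 0.16, adjusted *P* of 0.034, 0.051 in the blocked fit). *Scd1*, which desaturates fatty acids, was at 43.8, 27.6 and 31.4 NRPKM against 69.3, 99.1 and 86.5, and the citrate carrier gene *Slc25a1* at 22.3, 11.6 and 13 against 33, 36.5 and 37.3. No library of one compartment reached into the other for these 3 genes. Glycolysis and hypoxia genes gave 35 compared with 2 lower, or 1 without proliferative replicate 3, and a median of -0.04.

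**Figure D5:**
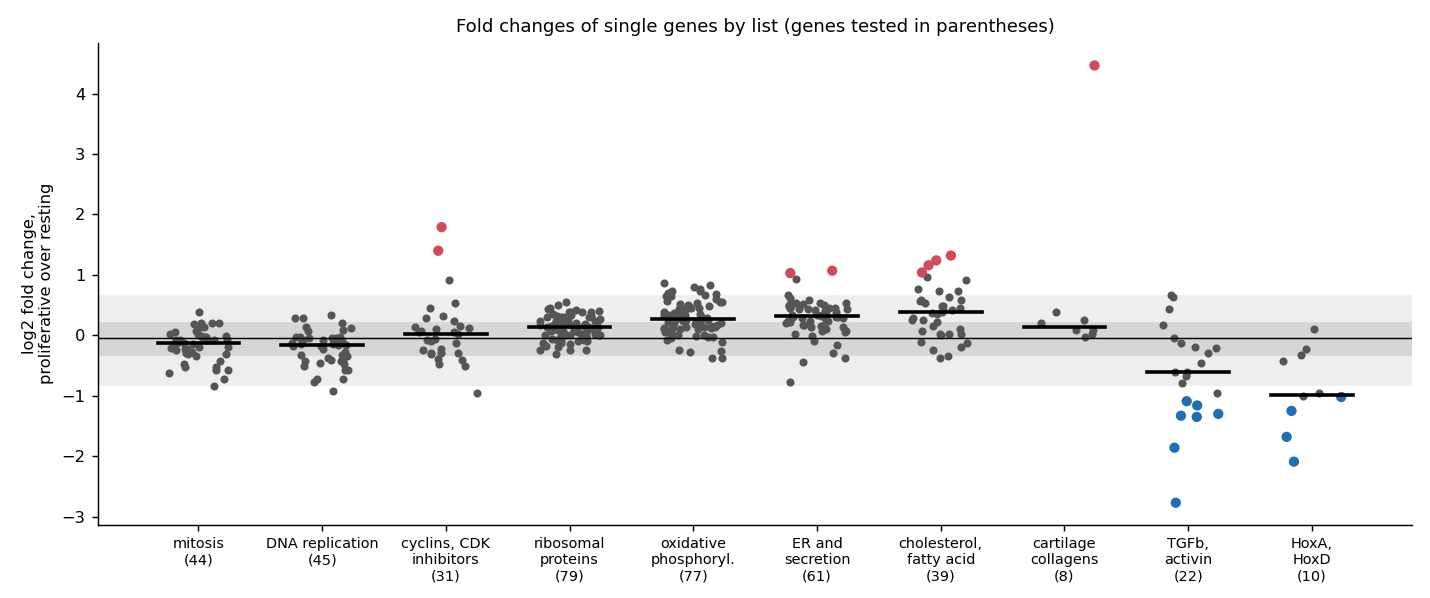
Log2 fold change of each gene compared in 10 lists (points, red where higher and blue where lower by the criteria), with the list's median as a bar. The dark and light bands hold the middle 50% and 90% of all 9914 genes and the thin line their median. Mitosis and DNA replication medians lay at -0.12 and -0.16, the TGFβ and activin median at -0.61 and the HoxA and HoxD median at -0.98.

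A set of genes better known from blood cells was higher in the proliferative compartment. *Lcp1*, the L-plastin gene, was at 2.45, 2.11 and 3.35 NRPKM against 13.8, 26.1 and 17.6 (2.79 ± 0.28, adjusted *P* of 0.012). *Fyb*, an adaptor gene, was at 1.9, 2.05 and 1.73 NRPKM against 6.89, 9.85 and 8.77 (2.10 ± 0.19, adjusted *P* of 0.0079). The SRC family kinase gene *Lyn*, at 8.79, 11 and 2.79 NRPKM against 25, 38.3 and 24.3, rose as well. All 3 stand on a list of 22 macrophage and osteoclast genes, which summed to 46.7 to 63.8 NRPKM in the resting and 123 to 129 in the proliferative libraries. Of the 22, 12 were below 5 NRPKM in every library, 7 could be compared and 4 were called. The defining macrophage genes were low in both compartments, *Csf1r* at 0.369, 0.518 and 0.843 NRPKM against 2.13, 1.99 and 1.15 and *Ptprc* at 0.167, 0.454 and 0.0748 against 0.763, 1.67 and 1.38, and *Cd68* was at 11.7, 10.9 and 15.9 against 13.5, 15.9 and 11.4. In WT hypertrophic replicates 2 and 3 *Csf1r* was at 56.7 and 49.6 NRPKM. The list summed to 1910 and 1450 NRPKM in these libraries, and to 141 in WT hypertrophic replicate 1. With no filter on low values 8 genes of the list were higher.

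The microRNA loci of the imprinted *Dlk1*-*Dio3* region on chromosome 12, between 109563692 and 109743795, were lower in the proliferative compartment as far as they could be read. The cluster is transcribed from the maternal chromosome within the long noncoding RNAs *Meg3*, *Rian* and *Mirg*. Of 51 loci 11 were at 0 in all 6 libraries, 32 could be compared and all 32 lay below 0, as 56.2% of all genes did. Loci of few reads can pass the filter through the resting libraries alone, as *Mir376c* did, so this count is partly set by the filter. Several loci also share a host row: *Mir154*, *Mir377*, *Mir409*, *Mir453* and *Mir496* overlap *Mirg*, and *Mir370* and *Mir1188* overlap *Rian*. Reads of host and locus rows cannot be told apart there, so the loci are not separate observations in any count given here. With no filter on low values 40 loci were compared, with 16 lower, none higher and a median of -2.8. The median log2 fold change of -2.73 depends on how values of few reads are handled and was -1.99 with a pseudocount of 1 and -1.88 without proliferative replicate 1. The criteria were met by 16 loci, all lower, where 2.51% of all genes compared were lower. They were met by 20 with a pseudocount of 1 and by 25 without proliferative replicate 3. RefSeq held mature sequences for 15 of the 16, and their 28 mature microRNAs had 28 different seeds. Those of the 3 loci with the highest levels among the 16 and of *Mir376c* are shown 5′ to 3′ with the seed, bases 2 to 8, in capitals.
miR-377-5p: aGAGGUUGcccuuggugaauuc
miR-377-3p: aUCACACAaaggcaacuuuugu
miR-665-5p: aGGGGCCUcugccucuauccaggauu
miR-665-3p: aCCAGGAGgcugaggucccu
miR-1188-5p: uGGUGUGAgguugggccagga
miR-1188-3p: uCCGAGGCuccccaccacacccugc
miR-376c-5p: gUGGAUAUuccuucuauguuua

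*Mir377* was at 118, 186 and 214 NRPKM in resting and 69, 65.5 and 92.1 in proliferative libraries, with a log2 fold change of -1.16 ± 0.27, or -0.99 and outside the criteria without resting replicate 3. *Mir665* was at 148, 182 and 233 NRPKM against 114, 22.9 and 39.7 (-1.97 ± 0.55), and *Mir1188* at 109, 158 and 189 against 65.2, 41.6 and 73.3 (-1.34 ± 0.29), which was outside the criteria in 1 fit of all 12 libraries. *Mir376c* was at 12.6, 28.8 and 13.7 NRPKM in the resting libraries and at 0 in every proliferative library, the 1 locus with an adjusted *P* under 0.05, and no fold is given for it. These values rest on few reads. Over the 51 loci approximately 216, 349 and 439 reads were counted in the resting and 107, 52 and 100 in the proliferative libraries, and 1 read on 80 bases was worth 4.23 to 6.62 NRPKM. The libraries were amplified from column-purified total RNA with no step for small RNA named in the labels, so reads at these loci cannot be taken as mature microRNA. The hosts were not called: *Meg3* was at 127, 198 and 195 NRPKM against 91.4, 102 and 117 (-0.72 ± 0.23), *Rian* at 253, 378 and 411 against 188, 205 and 261 (-0.66 ± 0.24), and *Mirg* at 67.3, 99 and 108 against 50, 40.2 and 54.7 (-0.90 ± 0.23), with *Mirg* meeting the criteria without resting replicate 1 (-1.11). With the GC trend removed only 2 of the loci had a GC value, so the list could not be recounted there.

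Among the genes with the largest changes outside the groups above, those named here were lower. *Dlgap1*, a synaptic scaffold gene, was at 6.39, 6.3 and 5.15 NRPKM against 1.38, 0.797 and 0.732 (-2.54 ± 0.25, adjusted *P* of 0.012). *Limch1*, an activator of non-muscle myosin, was at 17.1, 32.1 and 19.8 NRPKM against 4.34, 3.41 and 5.67 (-2.31 ± 0.29, adjusted *P* of 0.024, 0.054 in the blocked fit). *Ssc5d*, a scavenger receptor gene, was at 7.3, 22.1 and 34.5 NRPKM against 0.615, 4.05 and 3.45 (-3.03 ± 0.80, adjusted *P* of 0.16, 0.026 in the blocked fit). *Ass1*, the argininosuccinate synthase gene, was at 5.93, 12.4 and 12.7 NRPKM against 5.15, 0.962 and 0.818 (-2.52 ± 0.68), with proliferative replicate 1 just below the lowest resting library.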

How the data were processed

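Reads were aligned to mm10 by the authors, who dropped duplicates, poor reads and reads with several hits, and the deposited RPKM values (NRPKM, as they were normalized once more between libraries) are linear with zeros kept. The submitters' processing notes list TopHat, and the use of strand and the annotation are not given in the sources used here. Here log2(NRPKM + 0.1) was fitted with limma 3.58.1 (R 4.3.3), with moderated statistics, no covariate and Benjamini-Hochberg adjustment over the 9914 genes that reached 5 NRPKM in 3 or more of the 6 libraries. Tables and plots used Python 3.11.15, pandas 2.3.3, numpy 2.4.6 and matplotlib 3.10.9. The file gives no counts, so reads were approximated by taking as 1 read the commonest value among 1607 single-exon genes of sensory receptors and keratin-associated proteins.

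The members, the gene lists and the rules were chosen with earlier results of these data known. Named are the 12 largest rises and 12 largest falls without overlap and with at least 5 NRPKM in the higher compartment, called members of the lists (first those with an adjusted *P* under 0.05), and first ligands, receptors or regulators of a pathway. Some genes that the rule names are not reported here. Lists are described by counts and medians, with no test over a list. Same-numbered libraries of the compartments deviated together from their group means (*r* of 0.337, 0.144 and 0.224, against -0.268 to 0.105 for other pairs). Deviations from a mean of 3 libraries sum to 0, so these values are not independent. Summed over 5 sex-linked genes (*Xist* and Y chromosome genes), resting replicates 1 to 3 were at 254, 73.7 and 304 NRPKM. Proliferative replicates 1 to 3 were at 255, 93.2 and 295, so replicate 2 was lowest in both. The sum adds markers of both sexes, so it does not give the sex of a library. The 1 of these genes that could be compared had a log2 fold change of 0.08. It was -2.38 without resting replicate 2 and 2.44 without proliferative replicate 2. The replicate numbers were taken as pairs only in a fit with the number as a block. That fit is given where it changed a call at an adjusted *P* of 0.05, and the main fit does not use the pairing. The procedure was tested on simulated data.

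Alternatives were a pseudocount of 1, other filters or none, quantile normalization, median-of-ratios scaling, a variance trend, a fit over 12 libraries, the replicate block and leaving out each library. The removal of each library's GC trend, also with the block, was chosen after seeing the data.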

Additional observations from a re-analysis of the deposited data

How the results depend on the processing

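With a count given for the genes that met the criteria (446, with 197 higher and 249 lower), those with an adjusted *P* under 0.05 (74) and those with an FC of at least 5 (52), the filter on low values moved the first and the last most. With no filter the counts were 1632, 1017, 615, 35 and 414. With the filter over 12 libraries 99 genes had an FC of at least 5, and with at least 5 NRPKM in all 3 libraries of 1 compartment 122 had an adjusted *P* under 0.05. In 1 fit of all 12 libraries, where the spread is estimated over all of them, 121 did. Removing the GC trend, which also left out genes with no GC value, gave 162 genes lower, and with the replicate block added 138 with an adjusted *P* under 0.05. With the replicate block alone the counts were 505 (209 higher and 296 lower), 82 and 61, and the block moved none of them by over 1.5 times, though 46 of the 74 genes with an adjusted *P* under 0.05 were shared. It ended no call by the criteria among the genes named. Leaving out 1 library gave 386 to 632 genes, 178 to 241 higher, 197 to 412 lower, 19 to 63 with an adjusted *P* under 0.05 (19 without resting replicate 2) and 49 to 70 with an FC of at least 5. The cause of these moves was not tested. Of 111 called genes named, 91 kept their call in each of the 17 alternatives that could be run for them, 20 lost it in at least 1 and none changed sign. Depth limits the genes of few reads most, the microRNA loci above all.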

Other observations

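*Nhej1*, which encodes a DNA end-joining factor, was chosen after its values were seen because its row ends 15.7 kb from that of *Ihh*. It was at 4.12, 4.92 and 7.87 NRPKM in the resting and 28.7, 21.4 and 27 in the proliferative libraries, and rose by 2.21 ± 0.27 on the log2 scale (adjusted *P* of 0.021 in limma).

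For several genes higher in the proliferative compartment the WT hypertrophic libraries were higher again or lower, as levels side by side with no test. *Ibsp* was at 718, 968 and 1330 NRPKM in hypertrophic replicates 1 to 3 and *Cdkn1a* at 68.7, 111 and 103, both above every proliferative library. *Thrb* was at 13, 2.31 and 2.79 NRPKM and *Runx3* at 70.6, 14.2 and 18.1, with replicates 2 and 3 below every proliferative library.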
